A study of Mus musculus with 4 samples.

Results

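The genes described here make up the outer layer of Wnt signalling: the Wnt ligands, the Frizzled receptors that bind them, and the secreted proteins that block them. They were taken from the deposited expression table by matching gene symbols, and 39 of its 23235 gene symbols matched. These were 19 ligands (Wnt1 to Wnt16), 10 receptors (Fzd1 to Fzd10) and 10 secreted inhibitors (Dkk1 to Dkk4, Sfrp1, Sfrp2, Sfrp4, Sfrp5, Frzb and Wif1).

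RNA was measured by sequencing in 4 mouse cultures, with 1 library each. Wild-type embryonic stem (ES) cells of the J1 background, strain 129S4/SvJae, gave the library WT_ES, and ES cells with both Dnmt3a and Dnmt3b knocked out gave DKO_ES. Both genes encode de novo DNA methyltransferases. Both kinds of ES cell were cultured with serum and leukemia inhibitory factor, were freed of feeder cells and were sampled on day 0. From each, cells labelled neural progenitor cells (NPCs) were derived through 4 days of embryoid body culture (aggregates in suspension) and then 2 days with retinoic acid, and were sampled on day 6 (WT_NP and DKO_NP). The labels name 1 culture per group, and no difference below has a replicate check.

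Wnt ligands are lipid-bearing secreted proteins. On the receiving cell they bind a Frizzled receptor, either with the co-receptors Lrp5 and Lrp6, which leads to the stabilisation of beta-catenin and to transcription with Tcf and Lef factors, or with other partners in pathways that do not use beta-catenin. Sfrp proteins, Frzb and Wif1 bind the ligands, and Dkk proteins other than the divergent Dkk3 bind Lrp5 and Lrp6. In the early embryo Wnt signals act on pluripotent cells, form the primitive streak and posterior body, and pattern the dorsal neural tube and midbrain.

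Levels are given in FPKM, a count of sequenced fragments divided by transcript length and library depth, which can be compared between genes. The values of a gene are given in the order WT_ES, WT_NP, DKO_ES and DKO_NP throughout. The depth was read from the steps between low FPKM values and came to about 13.8, 36.2, 15.0 and 25.0 M reads, so that 3 reads in a transcript of 2 kb correspond to 0.109, 0.0414, 0.100 and 0.0600 FPKM. An exact 0 can be a failed estimate, since DKO_ES lists 10341 FPKM and WT_ES lists 0 for the housekeeping gene Lars2, so no fold is given against a value listed at 0. As a check of the labels, Dnmt3a stood at 35.3, 17.2, 12.3 and 4.14 FPKM and Dnmt3b at 140.3, 9.98, 13.9 and 5.22 FPKM. Both were lower in each knockout library than in its wild-type partner, and RNA of both remained.

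Libraries were compared after median scaling. The log2 ratio of a gene was taken from scaled FPKM plus a pseudocount of 1, which understates differences of low genes, and a gene was counted as higher or lower at 2-fold or more among genes that reached 1 FPKM in either library of the pair. Without scaling, the median gene was at a log2 ratio of -0.82 in WT_NP against WT_ES and -0.43 in DKO_NP against DKO_ES. It was at -0.06 in DKO_ES against WT_ES and at 0.39 in DKO_NP against WT_NP. Log2 ratios, folds and counts past 2-fold below are relative to that shift, unless given as deposited or without scaling. Levels, sums and shares in FPKM are as deposited, so their order between libraries can differ from that of the folds. Scaling moved the share of higher genes among all those past 2-fold from 13.3% to 59.0%, from 26.4% to 51.3%, from 63.2% to 69.0% and from 72.2% to 37.3% in the same order. Folds of single genes are ratios of scaled FPKM with no pseudocount, and the 95% interval beside each is an exact Clopper-Pearson interval from approximate read numbers. It leaves out variation between cultures, since each group has 1 library. Because PCR copies are not independent molecules, it can be too narrow even for counting error. Most read numbers are the smallest that fit the steps.

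The promoters of 5 members are shown because the NPC libraries differed at these genes and because one genotype lacks enzymes that methylate CpG dinucleotides. Each is the 250 bases before the RefSeq start (GRCm38.p6), on the strand of the gene. In the first 4 the capitals mark CpG. Wnt1 (chr15:98789607-98789856, plus strand) and Fzd10 (chr5:128600856-128601105, plus strand) were higher in DKO_NP than in WT_NP, while Wnt2 (chr6:18030446-18030695, minus strand) and Sfrp5 (chr19:42202253-42202502, minus strand) were lower.
Wnt1: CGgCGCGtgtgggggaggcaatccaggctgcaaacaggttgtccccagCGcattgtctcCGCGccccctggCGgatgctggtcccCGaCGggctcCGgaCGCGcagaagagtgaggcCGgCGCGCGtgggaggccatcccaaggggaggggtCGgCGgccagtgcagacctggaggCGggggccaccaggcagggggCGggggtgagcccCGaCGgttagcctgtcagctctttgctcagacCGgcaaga
Fzd10: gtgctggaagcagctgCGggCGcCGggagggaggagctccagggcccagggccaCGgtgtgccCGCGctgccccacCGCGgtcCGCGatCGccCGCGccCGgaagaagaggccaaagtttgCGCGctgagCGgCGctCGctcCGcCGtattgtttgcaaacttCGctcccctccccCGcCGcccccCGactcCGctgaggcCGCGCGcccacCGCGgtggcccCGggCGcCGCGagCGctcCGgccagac
Wnt2: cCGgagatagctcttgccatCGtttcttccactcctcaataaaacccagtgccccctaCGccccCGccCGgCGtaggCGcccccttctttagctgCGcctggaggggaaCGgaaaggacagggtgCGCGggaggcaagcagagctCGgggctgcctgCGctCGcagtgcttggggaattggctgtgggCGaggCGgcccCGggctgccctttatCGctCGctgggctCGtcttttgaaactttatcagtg
Sfrp5: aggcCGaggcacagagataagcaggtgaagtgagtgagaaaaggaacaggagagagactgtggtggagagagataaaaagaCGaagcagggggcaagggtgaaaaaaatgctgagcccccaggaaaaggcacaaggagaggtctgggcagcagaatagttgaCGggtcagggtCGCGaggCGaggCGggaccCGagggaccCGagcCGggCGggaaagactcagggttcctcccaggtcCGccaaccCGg
In the fifth, the promoter of Dkk1 (chr19:30549497-30549746, minus strand), the capitals mark the letters CTTTGA or their reverse complement TCAAAG, a core of the sites that Tcf and Lef factors are known to bind.
Dkk1: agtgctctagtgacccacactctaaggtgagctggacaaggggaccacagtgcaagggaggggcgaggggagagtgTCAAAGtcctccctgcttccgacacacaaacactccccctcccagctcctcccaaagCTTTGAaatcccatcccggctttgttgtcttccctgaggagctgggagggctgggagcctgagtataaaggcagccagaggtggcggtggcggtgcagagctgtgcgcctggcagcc

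The 250-base windows of Wnt1, Fzd10, Wnt2 and Sfrp5 held 23, 37, 20 and 13 CpG. Their ratios of observed to expected CpG were 0.735, 1.02, 0.791 and 0.657. The table of promoters had entries for 27 of the 39 members, in 30 windows. Of these, 23 (76.7%) had a ratio of at least 0.6 and at least 50% G and C, as CpG islands do, against 31.0% of all 32851 windows and 59.7% of the 12038 windows of genes at 1 FPKM or more in either NPC library. Most members with an entry therefore started in CpG-rich sequence. Among members higher in DKO_NP than in WT_NP, 6 had a window, with 16 to 42 CpG and a median ratio of 0.844. Among those lower in DKO_NP, 6 had a window, with 6 to 25 CpG and a median ratio of 0.704. Members within 2-fold had a median ratio of 0.897, and over all genes compared the medians were 0.525 for those higher in DKO_NP and 0.404 for those lower. The ranges of the members overlap, and methylation was not analysed here. CTTTGA stood on either strand in 5 of the 30 windows (16.7%) and in 13.8% of all windows. It stood in 10.4% of the windows of genes at 1 FPKM or more in either NPC library. Dkk1 was the member whose window held it 2 times, which 1.37% of all windows and 0.881% of those of such genes did.

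Ligand RNA was low in all 4 libraries. No ligand reached 10 FPKM in any library, and 10 of 19 reached 1 FPKM in at least 1. The summed level of the 19 ligands was 13.5, 19.8, 11.5 and 28.1 FPKM, against 119, 129, 93.4 and 143 FPKM for the 10 receptors and 43.1, 111, 35.5 and 57.8 FPKM for the 10 inhibitors. The order of the classes, with receptors above inhibitors and inhibitors above ligands, was the same in each library. These sums are as deposited. After scaling the receptor sum was 192 in WT_NP and 157 in DKO_NP, the reverse of their order as deposited. In whole cultures, fewer cells that make a transcript and less of it per cell cannot be told apart.

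In both ES libraries Wnt7b, a ligand of lung, placenta and brain development, led the ligands with 27.1% of the summed level in WT_ES and 39.8% in DKO_ES. It stood at 3.67, 0.774, 4.59 and 2.12 FPKM. Wnt9a, a ligand known from joint and limb development, stood at 1.80, 1.41, 0.882 and 3.0 FPKM. Wnt4, which acts in kidney and gonad formation, stood at 1.42, 1.91, 1.45 and 1.93 FPKM. These 3 were the most abundant ligands in the ES libraries, and Wnt4 was the most even of the 10 ligands at 1 FPKM or more.

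The first rank among ligands differed between the NPC libraries. In WT_NP it was Wnt2, a ligand of heart, lung and lateral mesoderm, listed at 0 in both ES libraries and at 2.66 FPKM (105 reads) in WT_NP, against 0.0733 FPKM (2 reads) in DKO_NP. In DKO_NP it was Wnt1, which patterns the midbrain and the dorsal midline of the neural tube, also listed at 0 in both ES libraries and at 1.96 FPKM in WT_NP and 6.80 in DKO_NP. Wnt1 made up 9.91% of ligand RNA in WT_NP and 24.2% in DKO_NP, and Wnt2 made up 13.4% and 0.260%.

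Wnt3a, a ligand of the primitive streak, tail bud and dorsal neural tube, stood at 0.175, 0.835, 0.0689 and 3.90 FPKM. Wnt6, known from surface ectoderm, stood at 0.784, 0.973, 0.627 and 3.55 FPKM. For both, DKO_NP stood above the other 3 libraries. Wnt5a and Wnt5b mainly act without beta-catenin, in cell polarity and movement. Wnt5a stood at 1.14, 2.48, 0.845 and 1.12 FPKM and Wnt5b at 0.587, 2.20, 0.836 and 2.75 FPKM. Wnt2b, the closest relative of Wnt2, stood at 0.547, 1.60, 0.295 and 0.686 FPKM. Wnt5a and Wnt2b were highest in WT_NP, whereas Wnt5b stood at like levels in both NPC libraries.

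The other 9 ligands stayed below 1 FPKM in all 4 libraries. Wnt11 ranged from 0.271 to 0.936 FPKM, Wnt10b from 0.0867 to 0.908, Wnt16 from a listed 0 to 0.913 and Wnt3 from 0.161 to 0.612. Wnt7a ranged from 0.138 to 0.406 FPKM, Wnt8a from 0.129 to 0.356, Wnt8b from 0.0553 to 0.301, Wnt10a from 0.0138 to 0.217 and Wnt9b from a listed 0 to 0.0973. Most of these values rest on few reads. Wnt10b had 3 reads in WT_ES and 76 in WT_NP, and Wnt16 had 20 reads in WT_NP and was listed at 0 in DKO_NP. Among the 39 members, 4 pairs are neighbours in the RefSeq gene order: Wnt6 with Wnt10a on chromosome 1, Wnt3a with Wnt9a and Wnt9b with Wnt3 on chromosome 11, and Wnt1 with Wnt10b on chromosome 15. Wnt1 and Wnt10b differed in direction between the NPC libraries, with 6.80 against 1.96 FPKM for Wnt1 and 0.346 against 0.908 FPKM for Wnt10b in DKO_NP against WT_NP.

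**Figure D1:**
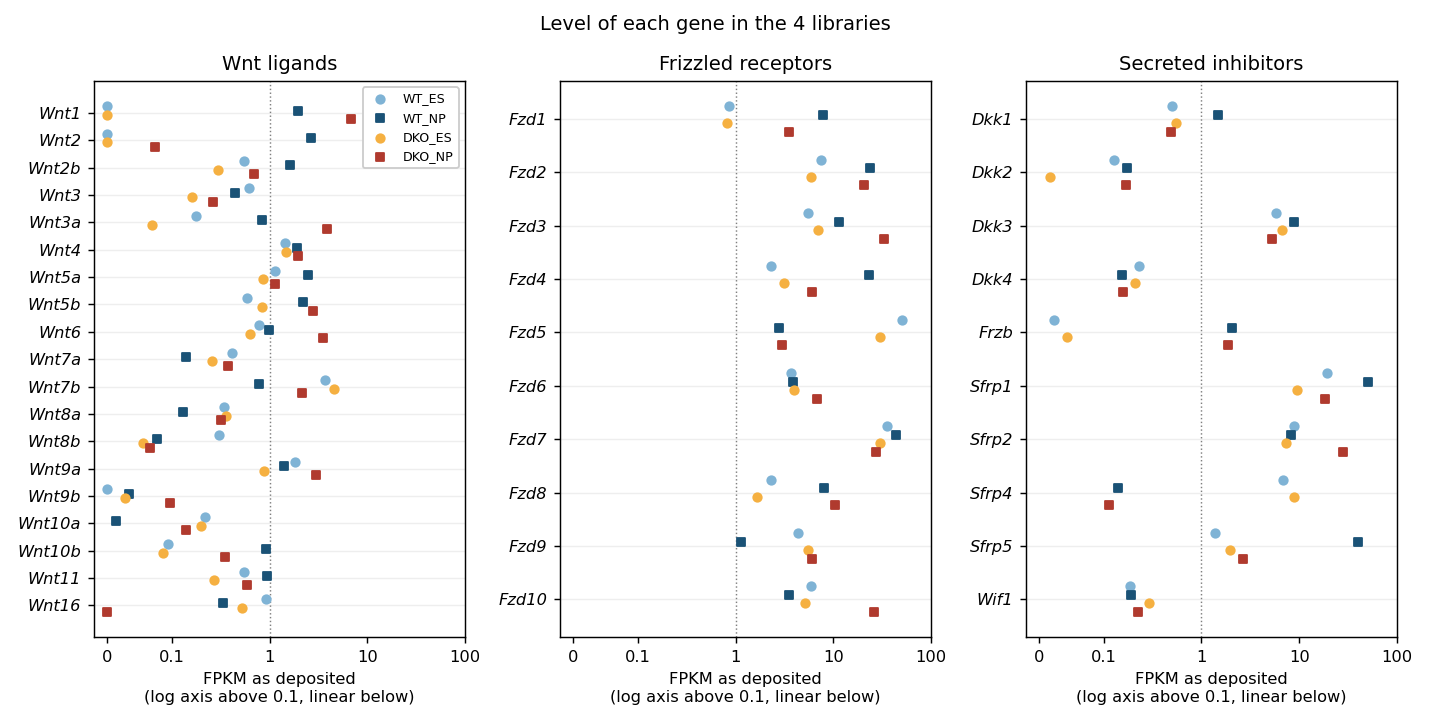
FPKM as deposited for the 19 ligands, 10 receptors and 10 inhibitors (rows) in the 4 libraries, with circles for ES and squares for NPC libraries, on an axis that is logarithmic above 0.1 and linear below; the dotted line marks 1 FPKM. Ligands lie below 10 FPKM in each library, while Fzd7 lies between 27.2 and 43.5 FPKM and Sfrp5 reaches 39.95 FPKM in WT_NP against 2.68 in DKO_NP.

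All 10 Frizzled receptors reached 1 FPKM in at least 1 library, and the receptors that led the class changed with differentiation. By sequence the family falls into Fzd1, Fzd2 and Fzd7, then Fzd5 and Fzd8, then Fzd3 and Fzd6, then Fzd4, Fzd9 and Fzd10. Fzd7, the Frizzled best known from pluripotent cells, was abundant throughout, at 35.6, 43.5, 30.4 and 27.2 FPKM. Fzd5, a receptor of early embryo, eye and gut development, stood at 51.1, 2.77, 29.8 and 3.0 FPKM. Together Fzd5 and Fzd7 led the class in both ES libraries, with 42.9% and 29.9% of its summed level in WT_ES and 31.9% and 32.6% in DKO_ES. In the NPC libraries Fzd5 made up 2.14% (WT_NP) and 2.10% (DKO_NP) of the class.

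Its close relative Fzd8, known from the anterior neural plate, went the other way, at 2.33, 8.11, 1.64 and 10.5 FPKM. Fzd2 stood at 7.56, 23.6, 5.94 and 20.9 FPKM and Fzd1 at 0.853, 7.82, 0.812 and 3.55 FPKM. Both relatives of Fzd7 were thus higher in each NPC library than in the ES library of the same genotype. Fzd4, which is known as a receptor of the vascular and retinal ligand norrin, stood at 2.30, 23.1, 3.11 and 6.00 FPKM, with WT_NP far above the rest.

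Fzd3, a receptor of axon guidance and cell polarity, stood at 5.50, 11.4, 7.02 and 33.2 FPKM. Its relative Fzd6, known from the alignment of hair follicles, stood at 3.66, 3.88, 3.95 and 6.80 FPKM. Fzd10, known from the dorsal neural tube, stood at 5.89, 3.49, 5.19 and 25.8 FPKM. Fzd9, known from the hippocampus and from bone, stood at 4.40, 1.14, 5.49 and 6.00 FPKM. For these 4 receptors DKO_NP held the highest level, by a wide margin for Fzd3 and Fzd10 and by a narrow one for Fzd9. The make-up of the class therefore differed between NPC libraries. In WT_NP the leading receptors were Fzd7 (33.8%), Fzd2 (18.3%) and Fzd4 (17.9%), and in DKO_NP they were Fzd3 (23.2%), Fzd7 (19.0%) and Fzd10 (18.1%), with Fzd2 next (14.6%).

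Among the inhibitors, RNA of the ligand-binding group exceeded that of the Dkk group. Sfrp1, a ligand-binding inhibitor with roles in body axis and forebrain, stood at 19.1, 50.1, 9.59 and 18.6 FPKM and led the class in every library but DKO_NP. Sfrp2, its relative known from neural tube and somites, stood at 8.95, 8.21, 7.25 and 28.2 FPKM and led there, with 48.8% of the class against 7.38% in WT_NP. Sfrp5, made by the anterior visceral endoderm and foregut of the embryo, stood at 1.39, 39.95, 1.96 and 2.68 FPKM. Its share of the class was 35.9% in WT_NP and 4.64% in DKO_NP.

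Sfrp4, a ligand-binding inhibitor known from bone, was an ES transcript in both genotypes, at 6.79, 0.140, 8.80 and 0.113 FPKM. Frzb, known from cartilage and mesoderm, stood at 0.0234, 2.06, 0.0430 and 1.87 FPKM, with 1 read in WT_ES and 2 in DKO_ES. Dkk3, the divergent member of the Dkk family, was the only one of the 4 above 2 FPKM in any library, at 5.75, 8.78, 6.75 and 5.31 FPKM. Dkk1, which blocks Lrp5 and Lrp6 and is needed for head formation, stood at 0.500, 1.46, 0.546 and 0.482 FPKM. The remaining 3 inhibitors stayed below 1 FPKM, with Wif1 from 0.187 to 0.287, Dkk4 from 0.152 to 0.229 and Dkk2 from 0.0167 to 0.173.

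**Figure D2:**
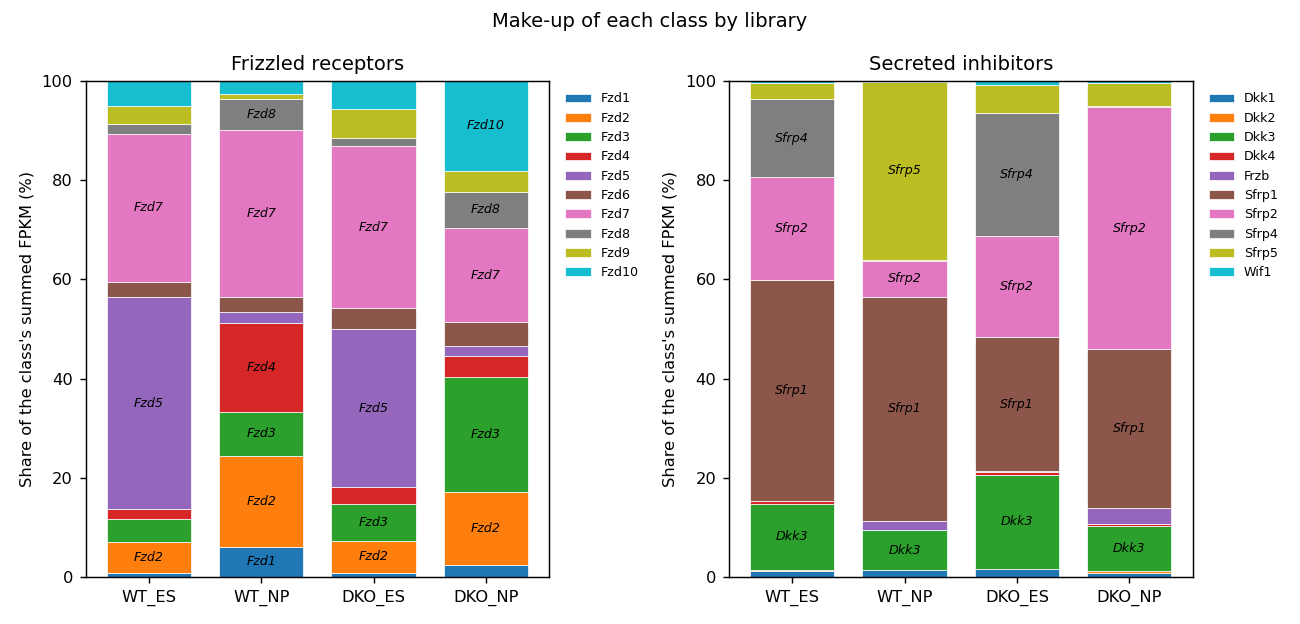
Share (%) of each library's summed FPKM of the 10 receptors (left) and the 10 inhibitors (right) taken by each gene, 1 bar per library. Fzd5 and Fzd7 fill most of both ES bars, and the NPC bars differ from each other, with Fzd4 (17.9%) and Sfrp5 (35.9%) large in WT_NP and Fzd3 (23.2%), Fzd10 (18.1%) and Sfrp2 (48.8%) large in DKO_NP.

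In differentiation of wild-type cells more members were higher than lower, under each setting tried. In WT_NP against WT_ES, 25 of the 39 members reached 1 FPKM in either library, and of these 16 were higher and 2 lower by 2-fold or more, where 16.2% and 11.3% of all 14086 genes compared were higher and lower. Without scaling 10 were higher and 4 lower, where 6.4% and 41.7% of all genes were. A member can pass this filter through the library where it is high, and without the filter 17 of the 39 were higher and 2 lower. The median log2 ratio of the 25 members was 1.33, and that of all genes compared was 0.01. Without the filter the medians were 0.62 for ligands, 1.52 for receptors, 0.99 for inhibitors and 0.05 for all genes.

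Ligands at least 2-fold higher in WT_NP were 5 of 8, and 0 were lower. Of the 5, Wnt1, Wnt2, Wnt2b and Wnt5b were below 1 FPKM in WT_ES and entered through WT_NP. Without the filter 6 of the 19 ligands were higher and 0 lower. Wnt5b was 7.36-fold higher (4.64 to 12.3), Wnt2b 5.75-fold (3.89 to 8.78) and Wnt5a 4.25-fold (3.51 to 5.20). Wnt1 and Wnt2 went from a listed 0 to 1.96 and 2.66 FPKM, and Wnt2b and Wnt5a did not pass 2-fold as deposited. Wnt7b was 2.41-fold lower (1.95 to 2.99), at a log2 ratio of -0.81, short of the 2-fold line on the scale with the pseudocount, which it passed as deposited and with a pseudocount of 0.1.

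Receptors at least 2-fold higher were 6 of 10, with a class median of 1.52, and 1 was lower. Fzd4 was 19.8-fold higher (16.5 to 23.8), Fzd1 18.0-fold (12.4 to 27.3), Fzd8 6.85-fold (5.65 to 8.38) and Fzd2 6.15-fold (5.55 to 6.83). Fzd3 was 4.08-fold higher (3.81 to 4.37) and Fzd7 2.40-fold (2.29 to 2.52), and neither passed 2-fold as deposited. Fzd5 was 9.40-fold lower (8.68 to 10.2). Fzd9 was 1.96-fold lower (1.49 to 2.59), Fzd6 2.09-fold higher (1.80 to 2.43) and Fzd10 1.16-fold higher (0.994 to 1.37), and all 3 stayed within 2-fold on the scale with the pseudocount, where as deposited Fzd9 passed the line as lower and the sign of Fzd10 turned.

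Inhibitors at least 2-fold higher were 5 of 7, and 1 was lower. Of the 5, Dkk1 and Frzb entered through WT_NP. Without the filter 5 of the 10 inhibitors were higher and 1 lower. Sfrp5 was 56.6-fold higher (41 to 80.6), and its log2 ratio of 4.88 was the largest of the members compared on the scale with the pseudocount. Sfrp1 was 5.15-fold higher (4.74 to 5.61), Dkk1 5.75-fold (3.40 to 10.4) and Dkk3 3.0-fold (2.64 to 3.43), of which Dkk1 and Dkk3 did not pass 2-fold as deposited. Frzb was 173-fold higher, with an interval of 30.8 to 6881 because WT_ES had 1 read. Sfrp4 was 24.7-fold lower (12.7 to 54.9).

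In the knockout, DKO_NP against DKO_ES, 24 of the 39 members entered and 15 were at least 2-fold higher and 2 lower, where 11.8% and 11.2% of all 14050 genes compared were. The count higher was 15 without the filter and 12 without scaling, where 7.84% of all genes were higher and 21.8% lower. The median log2 ratio of the 24 was 1.29, and that of all genes compared was -0.03. Without the filter the medians were 0.37 for ligands, 1.35 for receptors, 0.16 for inhibitors and 0.01 for all genes. Ligands at least 2-fold higher were Wnt1, Wnt3a, Wnt5b, Wnt6 and Wnt9a, of 8 compared. All of these were below 1 FPKM in DKO_ES and entered through DKO_NP. Without the filter 5 of the 19 ligands were higher and 0 lower. Wnt3a was 78.1-fold higher (26.5 to 381), from 3 reads in DKO_ES. Wnt6 was 7.80-fold higher (4.91 to 13.1), Wnt9a 4.69-fold (3.43 to 6.54) and Wnt5b 4.53-fold (3.07 to 6.87).

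Among receptors 7 of 10 were at least 2-fold higher in DKO_NP than in DKO_ES. Fzd8 was 8.82-fold higher (7.09 to 11.1), Fzd10 6.87-fold (6.02 to 7.87), Fzd3 6.51-fold (6.15 to 6.90) and Fzd1 6.03-fold (4.08 to 9.23). Fzd2 was 4.84-fold higher (4.32 to 5.44), Fzd4 2.66-fold (2.26 to 3.16) and Fzd6 2.38-fold (2.07 to 2.73), of which Fzd4 and Fzd6 did not pass 2-fold as deposited. Fzd5 was 7.21-fold lower (6.57 to 7.93). Of 6 inhibitors, Frzb was 59.8-fold higher (16.3 to 499, from 2 reads in DKO_ES), Sfrp2 5.36-fold (4.65 to 6.20) and Sfrp1 2.67-fold (2.36 to 3.02), while Sfrp4 was 56.7-fold lower (24.0 to 176). Sfrp1 did not pass 2-fold as deposited. Without the filter 3 of the 10 inhibitors were higher and 1 lower.

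The differentiation ratios of the genotypes come from separate libraries and can be set side by side. Of 22 members compared in both, 13 were higher in wild type and 13 in the knockout, and 9 were higher in both: Wnt1, Wnt5b, Fzd1, Fzd2, Fzd3, Fzd4, Fzd8, Frzb and Sfrp1. Fzd5 and Sfrp4 were lower in both. Over all 13423 genes compared in both, 1955 were higher in wild type and 1468 in the knockout, and 1071 in both. Of the 22 members, 21 had the same sign in both genotypes, as did 10578 of the 13423 genes. The exception after scaling was Fzd9, with a log2 ratio of -0.68 in wild type and 0.50 in the knockout. As deposited, Wnt9a, Fzd7, Fzd10, Sfrp2 and Dkk3 also had opposite signs.

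**Figure D3:**
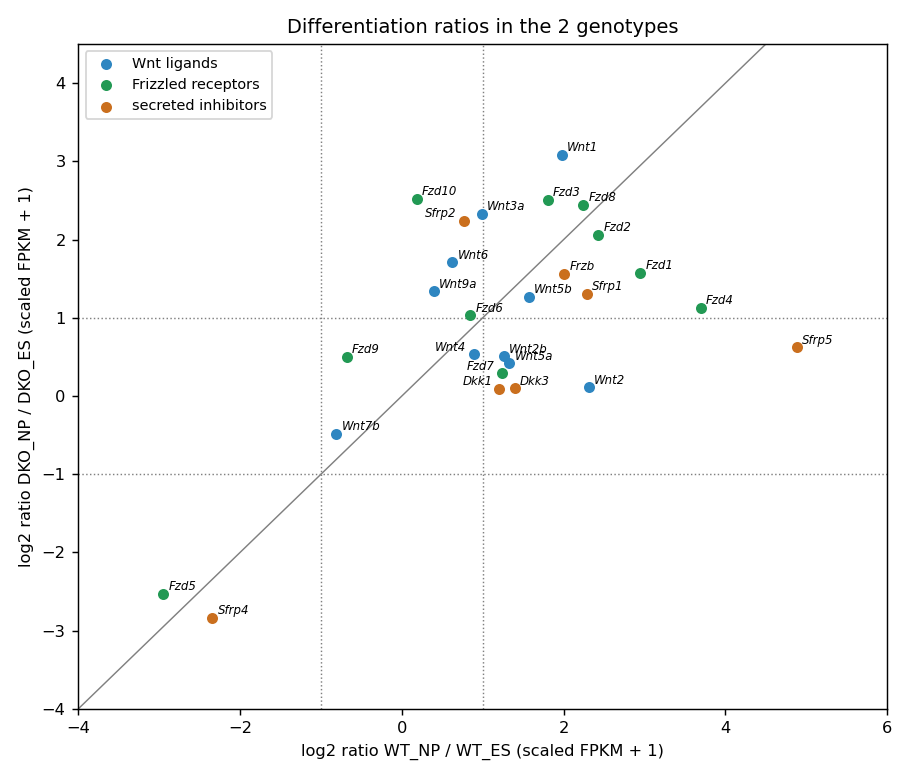
Log2 ratio of NPC to ES library in wild type (horizontal) and in the knockout (vertical) for the 27 members at 1 FPKM or more in at least 1 library; the diagonal marks equal ratios and dotted lines mark 2-fold. Fzd5 and Sfrp4 lie at the lower left, most others at the upper right, and Sfrp5 (4.88 against 0.62), Fzd4 (3.69 against 1.13) and Fzd10 (0.18 against 2.52) lie far from the diagonal.

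Before differentiation no member compared was past 2-fold between the genotypes. In DKO_ES against WT_ES, 18 members were compared, and 0 were higher and 0 lower by 2-fold or more, where 2.56% and 1.15% of all 13596 genes compared were. With 18 members these counts are near the shares of all genes and are not read as a trait of the members. None of the 18 passed 2-fold under any other setting tried. A member below 1 FPKM in both libraries could not be counted under any setting, because of the filter or the pseudocount of 1. The median log2 ratio of the 18 was -0.02, and that of all genes compared was 0.01. The counting intervals of several smaller ratios between these libraries excluded equal levels, but they leave out variation between cultures. Sfrp1 was 1.89-fold lower in DKO_ES (1.66 to 2.17), Wnt9a 1.93-fold lower (1.34 to 2.82) and Fzd5 1.63-fold lower (1.56 to 1.70). Fzd4 was 1.42-fold higher (1.13 to 1.80), Sfrp4 1.37-fold (1.11 to 1.68), Fzd3 1.35-fold (1.24 to 1.46) and Wnt7b 1.32-fold (1.12 to 1.56). Sfrp5 (1.49-fold higher, 0.970 to 2.32) and Fzd10 (1.08-fold lower, 0.902 to 1.29) had intervals that include equal levels. Below the filter, at under 1 FPKM in both libraries, Wnt3 was 3.61-fold lower in DKO_ES (1.60 to 9.17) and Wnt8b 5.16-fold lower (1.46 to 27.8), on 8 and 3 reads.

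After differentiation the genotypes differed in all 3 classes. In DKO_NP against WT_NP, 26 members were compared, of which 7 were higher and 9 lower by 2-fold or more, where 4.76% and 7.99% of all 13601 genes compared were. The counts were the same without the filter, and without scaling 7 were higher and 4 lower, where 10.2% and 3.90% of all genes were. The median log2 ratio of the 26 was -0.27 and that of all genes compared 0.01. Ligands divided into 3 higher and 2 lower of 10, receptors into 3 higher and 3 lower of 10, and inhibitors into 1 higher and 4 lower of 6.

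Higher in DKO_NP were the ligands Wnt3a at 3.45-fold (2.71 to 4.43), Wnt6 at 2.69-fold (2.05 to 3.57) and Wnt1 at 2.56-fold (2.13 to 3.08). Wnt6 stood at the 2-fold line, with a log2 ratio of 1.0, and fell short of it with upper-quartile scaling. Among receptors Fzd10 was 5.47-fold higher (4.91 to 6.10), Fzd9 3.88-fold (3.07 to 4.96) and Fzd3 2.15-fold (2.08 to 2.22). Of the inhibitors, Sfrp2 was 2.54-fold higher (2.31 to 2.80). Wnt1, Wnt3a and Fzd10 are known from the dorsal neural tube.

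Lower in DKO_NP were the ligands Wnt2, 49.1-fold (13.3 to 411, from at least 2 reads in DKO_NP), and Wnt5a, 2.98-fold (2.56 to 3.48). Among receptors Fzd4 was 5.22-fold lower (4.78 to 5.70), Fzd1 2.98-fold (2.55 to 3.49) and Fzd7 2.17-fold (2.08 to 2.27). Sfrp5 was 20.2-fold lower (16.9 to 24.2), Dkk1 4.11-fold (2.71 to 6.43), Sfrp1 3.65-fold (3.42 to 3.91) and Dkk3 2.24-fold (2.01 to 2.50). As deposited, Wnt2, Fzd4, Sfrp1 and Sfrp5 were past 2-fold, and Wnt5a, Fzd1, Fzd7, Dkk1 and Dkk3 kept their direction without passing it. Of the hand-picked promoter windows printed above, that of Sfrp5 held 13 CpG and that of Dkk1 6 CpG (ratio 0.260). Those of Wnt2, Wnt1 and Fzd10 held more. The median was 15 in windows of genes at 1 FPKM or more in either NPC library. It was 10 in windows of genes in the expression table and 6 over all windows. Over all 6 lower members with a window the median was 15, with Fzd1 (12) below it and Fzd4 (25) and Fzd7 (17) above.

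Members within 2-fold between the NPC libraries included Wnt2b, 3.16-fold lower without a pseudocount (2.39 to 4.23) at a log2 ratio of -0.95, and Wnt7b, 2.03-fold higher (1.64 to 2.51) at 0.63. Fzd2 was 1.53-fold lower (1.45 to 1.62), Frzb 1.50-fold lower (1.21 to 1.85) and Wnt9a 1.57-fold higher (1.29 to 1.90). Fzd8 and Wnt5b were nearest to equal, at 1.05-fold lower (0.958 to 1.14) and 1.08-fold lower (0.878 to 1.34). For Fzd5, Fzd8, Wnt4 and Wnt5b the sign turned as deposited.

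**Figure D4:**
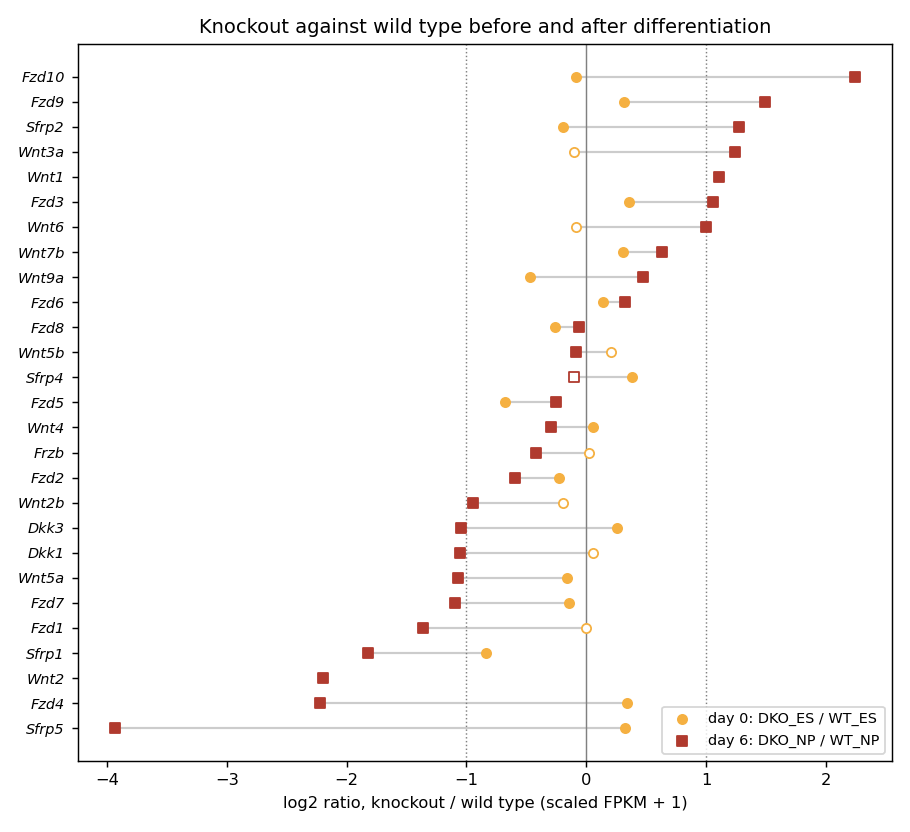
Log2 ratio of knockout to wild type for members at 1 FPKM or more in at least 1 library, at day 0 (circles, DKO_ES against WT_ES) and day 6 (squares, DKO_NP against WT_NP), ordered by the day 6 value; open symbols mark pairs below 1 FPKM in both libraries and dotted lines mark 2-fold. Wnt1 and Wnt2 have no circle because both ES libraries list them at 0. Circles all lie within 2-fold, and squares run from -3.94 for Sfrp5 to 2.25 for Fzd10.

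Markers of cell types moved with the difference between the NPC libraries. Of all genes compared, 4.76% were at least 2-fold higher in DKO_NP than in WT_NP and 7.99% lower. Between the ES libraries 2.56% were higher and 1.15% lower in DKO_ES. Of 9 neural progenitor markers compared, 7 were at least 2-fold higher in DKO_NP than in WT_NP, and the summed level of the 10 in the list was 30.0, 65.0, 35.2 and 238 FPKM. Sox1 stood at 3.15, 4.33, 2.14 and 18.3 FPKM, and Pax3, a dorsal neural tube marker, at 0.120, 3.15, 0.0553 and 13.1 FPKM. Mesoderm markers were lower in DKO_NP for 6 of 9, with sums of 3.93, 77.4, 4.17 and 17.7 FPKM, and the level of Foxf1a, made in lateral mesoderm, was 28.0 FPKM in WT_NP against 0.530 in DKO_NP. Endoderm markers were lower for 7 of 10, with sums of 7.28, 135, 4.67 and 34.2 FPKM, and the level of Gata4 was 30.4 FPKM in WT_NP against 0.779 in DKO_NP. Both libraries labelled NPC thus held neural progenitor RNA, more of it in DKO_NP, along with mesoderm and endoderm RNA, more of it in WT_NP.

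Pluripotency markers were also higher in DKO_NP for 4 of 10, with sums of 7748, 112, 8353 and 394 FPKM. Fibroblast markers, which feeder cells would carry, were lower in DKO_NP for 4 of 6 and lower in DKO_ES than in WT_ES for 4 of 7, with sums of 274, 144, 186 and 74.9 FPKM. Of their 10 genes, Dcn was listed at 0 in both ES libraries, Lum in WT_ES and S100a4 in both NPC libraries. Trophoblast markers were higher in DKO_NP for 3 of 8 (Tfap2c, Ascl2 and Plac1) and lower for 2 (Krt8 and Krt18). Their sums were 137, 389, 71.0 and 288 FPKM. Of these, Krt8 and Krt18 held 167 and 214 FPKM in WT_NP and 110 and 141 FPKM in DKO_NP. Neural crest markers were lower for 2 of 4, with sums of 26.1, 26.5, 28.4 and 19.8 FPKM, and neuron markers were higher for 2 of 6 and lower for 1, with sums of 219, 10.2, 218 and 39.9 FPKM. Primitive streak markers summed to 1.05 FPKM in each NPC library, and of the 6 none reached 1 FPKM there. Marker sums follow their most abundant genes, so they do not give the level of a cell type. In WT_ES, Fn1 held 206 of the 274 FPKM of the fibroblast list. Stmn2 and Tubb3 held 138 and 59.0 of the 219 FPKM of the neuron list there. The part of these markers in the differences of Wnt genes was not tested.

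The rest of the pathway was compared in 7 lists arranged by role, some of which share genes. Of all genes compared, 16.2% were at least 2-fold higher and 11.3% lower in WT_NP against WT_ES. The shares were 11.8% and 11.2% in DKO_NP against DKO_ES, and 4.76% and 7.99% in DKO_NP against WT_NP. In DKO_ES against WT_ES they were 2.56% and 1.15%. In lists this short, counts near these shares are not read as results, and no list was tested. For release of the ligands, 1 of 7 genes was at least 2-fold higher in WT_NP than in WT_ES and 2 of 7 were in DKO_NP than in DKO_ES. Wls, which carries Wnt proteins to the cell surface, stood at 6.88, 45.3, 3.15 and 50.5 FPKM, and was 12.9-fold higher on differentiation in wild type and 22.1-fold in the knockout. Porcn, which attaches the lipid to Wnt proteins, stood at 13.6, 10.5, 8.49 and 15.7 FPKM. None of the 7 passed 2-fold between the NPC libraries.

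Of 13 co-receptors and partners of Frizzled compared in DKO_NP against WT_NP, 0 were higher and 1 lower. Of all genes, 4.76% and 7.99% were. Lrp5 stood at 28.8, 18.3, 26.5 and 21.6 FPKM and Lrp6 at 28.7, 20.2, 29.4 and 22.2 FPKM, and neither passed 2-fold in any comparison. The one lower was Prickle1, a planar polarity gene, at 3.06, 11.3, 2.71 and 6.01 FPKM. On differentiation in wild type 4 of 13 were higher and 1 lower, led by Gpc3, a heparan sulfate carrier, at 43.1, 164, 67.5 and 136 FPKM. In the knockout 6 of 13 were higher and 0 lower.

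In the R-spondin axis, whose ligands and Lgr receptors keep Frizzled proteins at the cell surface, 3 of 6 genes were lower in DKO_NP than in WT_NP and 0 higher. Rspo3 stood at 0.116, 2.38, 0.267 and 0.463 FPKM, Rspo1 at 2.18, 4.11, 4.12 and 1.85 FPKM, and Rnf43, a ligase that removes Frizzled proteins, at 0.697, 2.01, 0.356 and 0.409 FPKM. Other inhibitors had 1 of 11 higher and 1 lower. Shisa3, which retains receptors inside the cell, stood at 0.448, 13.7, 0.642 and 1.48 FPKM, and Notum, which strips the lipid from Wnt proteins, at 8.86, 0.373, 8.50 and 2.62 FPKM. On differentiation, 4 of 7 genes of the R-spondin axis were higher in wild type and 1 of 4 in the knockout, with 0 lower in either. Of the other inhibitors, 4 of 10 were higher and 1 lower in wild type, and 4 of 11 were higher and 1 lower in the knockout.

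For the cytoplasmic relay, the counts past 2-fold are too small to be read as a trait of the list. On differentiation, 2 of 17 were higher and 1 lower in wild type, and 0 of 18 passed 2-fold in the knockout. None of the 18 genes was past 2-fold in DKO_NP against WT_NP, where 4.76% of all genes were higher and 7.99% lower. The median log2 ratio of the 18 was 0.05. Ctnnb1, which encodes beta-catenin, stood at 378, 245, 346 and 375 FPKM. Of 12 nuclear factors, 4 were higher and 1 lower on differentiation in wild type, and 2 were higher and 0 lower in the knockout. Between the NPC libraries 1 was higher and 0 lower in DKO_NP, and the higher one was Pygo1, a beta-catenin partner, at 1.53, 1.19, 1.82 and 4.91 FPKM. Lef1, a factor that pairs with beta-catenin, was the 1 nuclear gene of 11 past 2-fold between the ES libraries, at 5.73, 3.09, 1.22 and 2.08 FPKM and 4.46-fold lower in DKO_ES.

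Genes widely used as readouts of the beta-catenin branch did not move as one. On differentiation 7 of 17 were higher and 2 lower in wild type, and 7 of 16 were higher and 1 lower in the knockout. Lef1, which this list shares with the nuclear factors, was the 1 gene of 11 past 2-fold between the ES libraries, and it was lower in DKO_ES. Of 18 compared between the NPC libraries, 4 were higher in DKO_NP and 2 lower, with a median log2 ratio of 0.24. Higher were Ccnd1, a cell cycle gene, at 63.6, 5.97, 56.1 and 36.2 FPKM, Msx1 of the dorsal neural tube, at 0.184, 1.27, 0.102 and 7.80 FPKM, Notum, and Cdx1 at 0.576, 0.938, 0.529 and 3.92 FPKM. The 2 lower were Rnf43 and the posterior gene Cdx2, at 0.197, 2.49, 0.0301 and 0.631 FPKM. Axin2, the most general readout of the branch, stood at 5.08, 5.27, 4.82 and 12.6 FPKM, with a log2 ratio of 0.75 between the NPC libraries. Sp5 stood at 1.54, 1.97, 1.27 and 2.46 FPKM, with a log2 ratio of -0.08, and T, the primitive streak gene, ranged from 0.0380 to 0.276 FPKM.

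**Figure D5:**
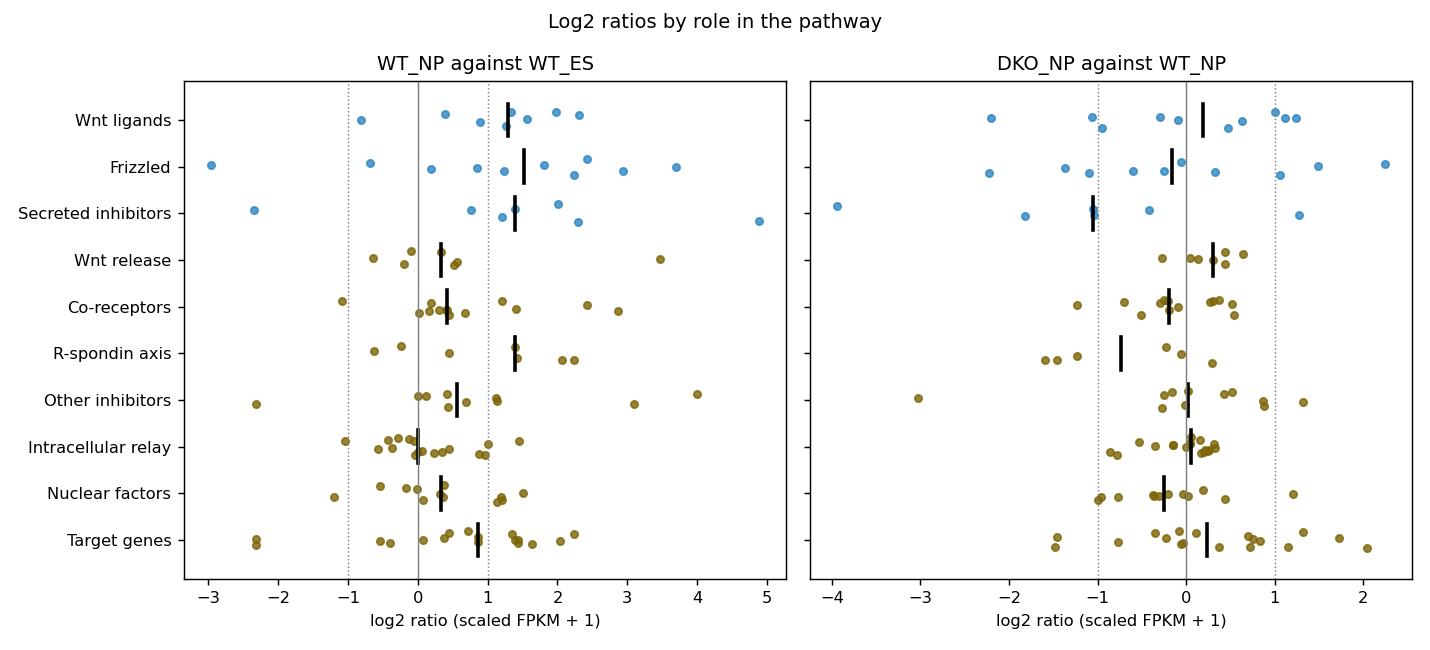
Log2 ratios of single genes (points, genes at 1 FPKM or more in either library) by role, in WT_NP against WT_ES (left) and DKO_NP against WT_NP (right); black bars are list medians and dotted lines mark 2-fold. Ligands, receptors and inhibitors (blue) spread over several log2 units in both panels. The intracellular relay has 0 of 18 genes past 2-fold in the right panel, where 4.76% of all genes were higher and 7.99% lower. In a list this short that count is not read as a result.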

How the data were processed

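The values, as the authors deposited them, are FPKM per gene symbol (23235 symbols) in 4 libraries; 18 blank rows were left out and 0 value columns were unmapped. Per the labels' protocols, rRNA was removed from total RNA before TruSeq library preparation; strand is not stated there, so RNA of overlapping antisense genes may be mixed. Bowtie and TopHat were used with build mm9, per the submitters' processing notes. The versions and the program behind the FPKM values were not given in the sources used here.

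Median scaling used the geometric mean over the 4 libraries as reference (divisors 1.32, 0.671, 1.25 and 0.908), and log2 ratios were taken with a pseudocount of 1 FPKM. No test was run, since each comparison sets 1 library against 1. Low FPKM values are whole multiples of 1 read: of 849 low genes with 1 transcript, 833 (98.1%) gave whole reads to within 0.004. Reads of 32 members come from these steps and those of 7 from exon lengths of GENCODE M21, which gave 0.925 to 2.61 times the reads of the steps in members with both. The steps give the smallest whole numbers in the right proportion, so the true reads can be a whole multiple of them. The interval would then be narrower than the one given. The intervals were computed in Python 3.11.15 with scipy 1.17.1. Scripts were tested on simulated data.

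Every member at 1 FPKM or more in any library is named with all values, the others with their range; of each pathway list, Lef1, Axin2, Sp5, T, Porcn, Wls, Lrp6, Lrp5, Ctnnb1 and up to 2 genes past 2-fold per direction are named. Cdx1, Rspo1 and the marker genes named singly fall outside this rule and were chosen after their values were seen. Members and lists were chosen with earlier results of these data known. Alternatives were values as deposited, upper-quartile scaling, a pseudocount of 0.1, a filter at 5 FPKM and no filter.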

Additional observations from a re-analysis of the deposited data

Results flagged for a closer look

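Fzd9 had opposite signs of differentiation in the genotypes. From 4.40 FPKM (132 reads) in WT_ES it stood at 1.14 FPKM (90 reads) in WT_NP, a log2 ratio of -0.68 after scaling, and from 5.49 FPKM (179 reads) in DKO_ES it stood at 6.00 FPKM (327 reads) in DKO_NP, a log2 ratio of 0.50. The difference of these ratios, knockout minus wild type, was 1.18. With 1 library per group it was not tested.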

How the results depend on the processing

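With FPKM as deposited, members at least 2-fold higher in WT_NP against WT_ES numbered 10 in place of 16, those lower 4 in place of 2, and those lower in DKO_NP against WT_NP 4 in place of 9. With a filter at 5 FPKM, 9 members were higher in WT_NP against WT_ES and 9 in DKO_NP against DKO_ES, in place of 16 and 15, where fewer members were compared. The other counts of members stayed within 1.5 times under upper-quartile scaling, a pseudocount of 0.1 and no filter, and no call of a member was reversed. Depth limits ligands most: below 0.1 FPKM a value in an ES library rests on about 3 reads or fewer. No paired analysis was possible because each group holds 1 library.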
